A study of Drosophila melanogaster with 12 samples.

Results

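The Imd pathway is the fly's main route of defence against bacteria that carry DAP-type peptidoglycan, and the 9 genes described here encode its intracellular signal transducers: imd, Fadd, Dredd, Diap2, Tab2, key, IKKbeta, Rel and pirk. The members were named by symbol, and each was read from the probe set whose only gene symbol in the platform annotation was that member. All 9 had exactly 1 such probe set, out of 11982 genes with a symbol of their own and 18769 probe sets tested. RNA was measured on 12 Affymetrix Drosophila Genome 2.0 arrays of whole adult Drosophila melanogaster females of LHM, an outbred wild-type population kept in the laboratory for over 400 generations. Double mated females had a mating on day 12, within 60 minutes of exposure to males, and another on day 13, and were frozen 6 hours after mating. Single mated females were held without males on day 12 and mated once, taken here to be on day 13, where the available description breaks off, and were likewise frozen 6 hours after mating. Virgin females were frozen unmated. All were collected as virgins on day 9, were given live yeast on day 12 and were briefly anaesthetised with CO2 on that day. The males came from a cross of inbred lines derived from LHM. Each array held RNA from its own pool of 8 flies, with 4 arrays per group.

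In this pathway, peptidoglycan receptors of the PGRP family gather the adaptor imd, which recruits the death-domain adaptor Fadd and through it the caspase Dredd. Dredd cleaves imd, the ubiquitin ligase Diap2 then builds ubiquitin chains, and the chains are bound by Tab2, the partner of the kinase Tak1. Tak1 activates the IKK complex, made of the kinase IKKbeta and the regulatory subunit key (also called Kenny or IKKgamma), which phosphorylates the NF-kappaB factor Rel (Relish). Cleaved Rel enters the nucleus and switches on antimicrobial peptide genes, in the fat body after systemic infection and in the gut epithelium, and also switches on pirk, an inhibitor that acts at the receptors and imd.

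Signals are on the log2 scale after RMA, a standard background correction, normalization and probe summary for these arrays. The array medians lay between 5.97 and 6.07. They were 5.97 to 5.98 in virgin, 6.01 to 6.07 in single mated and 6.02 to 6.06 in double mated arrays, so every virgin array lay below every mated array. The fourth double mated array was the least like its group: its SD over probe sets from the other arrays of the group was 0.245 (double mated replicate 4), against 0.132 to 0.185 elsewhere. Follicle cell genes, which mark the ovary, had mean log2 signals of 9.65 to 14.31, and genes of the male accessory gland 3.52 to 5.21. The pools were separate extractions, but nothing says that they came from separate cultures, so p-values measure only the spread between these pools. In whole flies, fewer cells of a type and less RNA per cell cannot be told apart. The comparisons of each mated group with virgins share the 4 virgin arrays. Double mated females first met males on day 12 and single mated females, as taken here, on day 13. Between them the number of matings and the time since the first mating cannot be told apart.

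The transducers did not move as a block. Both IKK subunits and the adaptor Fadd fell with mating, Rel was higher in double mated females, and imd, Dredd, Diap2, Tab2 and pirk passed the test in no comparison. In double mated against virgin females, 3 of 9 members were called lower and 1 higher by limma at a Benjamini-Hochberg adjusted p under 0.05, when 28.1% of all probe sets were called, 15.7% lower and 12.3% higher. In single mated against virgin females 1 of 9 was called lower and 0 higher. Of all probe sets 9.66% were called there, 5.17% lower and 4.49% higher. At an unadjusted p under 0.05, 3 members were lower and 0 higher in that comparison. Between double and single mated females 2 of 9 were called lower and 0 higher, against 5.29% of all, 1.74% lower and 3.55% higher. At an unadjusted p under 0.05, 3 members were lower in double than in single mated females and 1 higher. All single mated arrays lay below all virgin arrays for 5 of 9 members (key, IKKbeta, Fadd, Tab2 and Diap2) and above for 0, when 12.5% and 8.28% of all probe sets did so. For Diap2 the groups nearly touched, with a highest single mated value of 10.2018 and a lowest virgin value of 10.2032. Of these 5 members only key was called in that comparison. All double mated arrays lay below all virgin arrays for 3 members and above for 1, against 16.4% and 11.6% of all, and below all single mated arrays for 3 and above for 0, against 5.40% and 5.63%. The median change of the 9 members was -0.02 in double mated against virgin and -0.06 in single mated against virgin females, beside -0.02 and 0.00 over all probe sets.

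**Figure D1:**
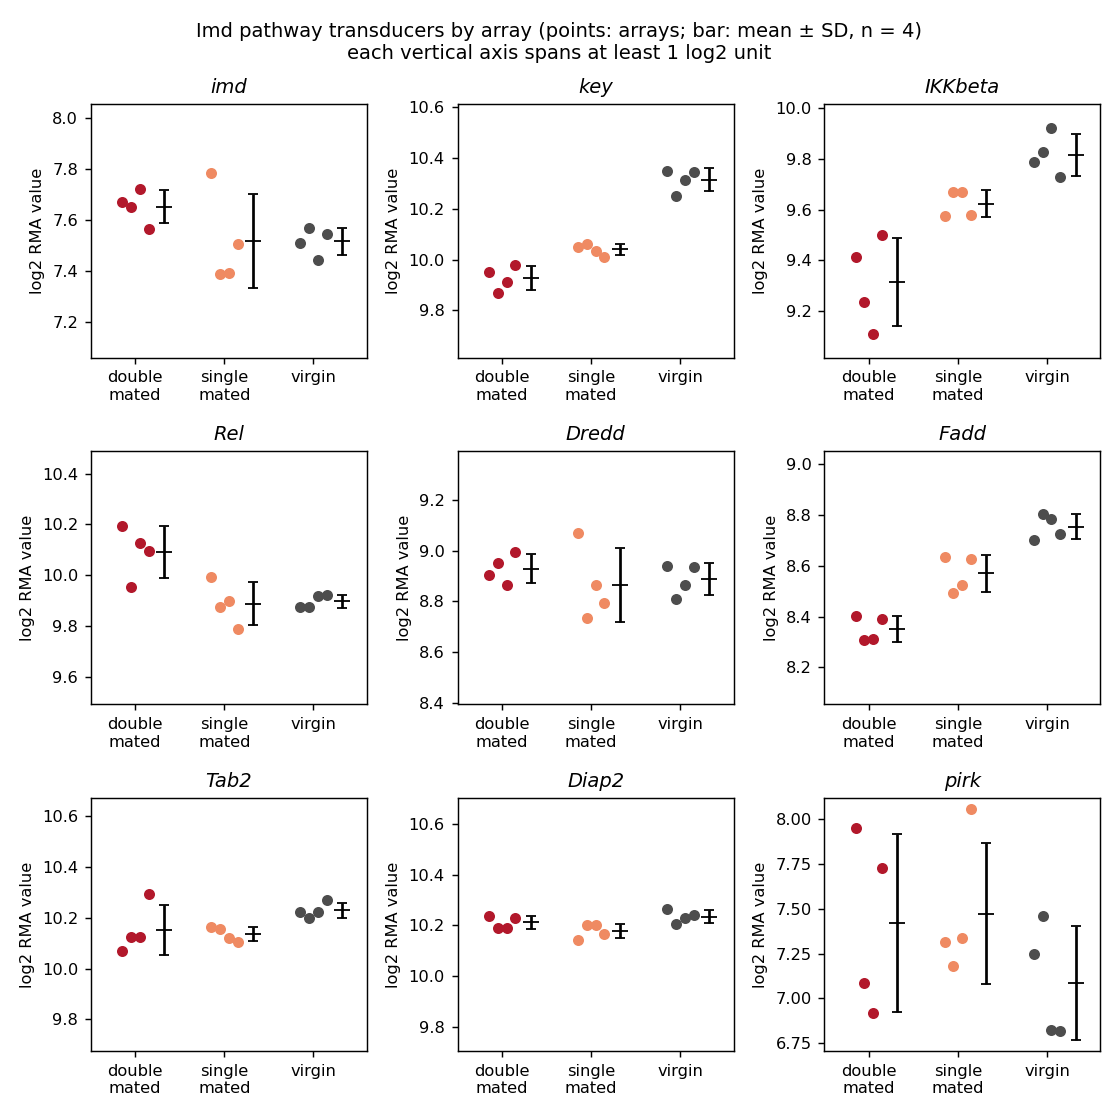
Log2 RMA value of each of the 9 transducers on each array, with double mated, single mated and virgin arrays from left to right (4 points each) and the mean ± SD beside them; the vertical axes differ in position and span at least 1 log2 unit. Values of key, IKKbeta and Fadd lie lowest in double mated and highest in virgin arrays with no overlap of groups, while pirk spreads widely within every group.

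Of the IKK complex, key, the regulatory subunit, measured 9.95, 9.87, 9.91 and 9.98 in the 4 double mated arrays, 10.05, 10.06, 10.04 and 10.01 in the single mated arrays, and 10.35, 10.25, 10.31 and 10.34 in the virgin arrays. Every double mated array lay below every single mated array, and all of those below every virgin array. In double mated females key fell to 0.766 of the virgin level (95% interval 0.709 to 0.827, limma adjusted p = 9.37e-05), and in single mated females to 0.827 (0.766 to 0.893, adjusted p = 0.0056). The step between the mated groups, -0.11 (SE 0.05) on the log2 scale, did not pass (adjusted p = 0.231). The order ran double mated, single mated, virgin from low to high, with the mated neighbours not separated by the test. The pooled within-group SD of key was 0.04, against a median of 0.12 over all probe sets.

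IKKbeta, the catalytic subunit (also called ird5), measured 9.41, 9.24, 9.11 and 9.50 in double mated, 9.57, 9.67, 9.67 and 9.58 in single mated, and 9.79, 9.83, 9.92 and 9.73 in virgin arrays. Again no groups overlapped, but the double mated arrays were the most spread (9.31 ± 0.17 in double mated, 9.62 ± 0.05 in single mated and 9.82 ± 0.08 in virgin females, SD, n = 4 each). IKKbeta fell to 0.707 of the virgin level in double mated females (0.627 to 0.796, adjusted p = 3.23e-04). In single mated females its level was 0.875 of the virgin level (0.777 to 0.985), which missed the threshold (adjusted p = 0.149). Directly against single mated females, double mated females were at 0.808 (0.717 to 0.910, adjusted p = 0.0381). That call ended when any single mated array was left out, or virgin replicate 1 or 2, or double mated replicate 2 or 3 (adjusted p between 0.0535 and 0.104), and held without the other 4 arrays (0.0082 to 0.0465).

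Fadd, the adaptor between imd and Dredd, showed the same order. Its values were 8.40, 8.31, 8.31 and 8.39 in double mated, 8.64, 8.49, 8.52 and 8.63 in single mated, and 8.70, 8.81, 8.78 and 8.73 in virgin arrays, with no overlap between any groups. The level fell to 0.757 of virgin in double mated females (0.695 to 0.824, adjusted p = 1.34e-04), and was 0.880 of virgin in single mated females (0.809 to 0.958), just short of the threshold (adjusted p = 0.0569). The single mated difference passed without single mated replicate 1 (adjusted p = 0.0496) and without double mated replicate 4 (0.0405). Double against single mated females differed by -0.22 (SE 0.06, adjusted p = 0.0392), and that call held without double mated replicate 4 (0.0247) but ended without any of the other 11 arrays (0.0519 to 0.106).

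With both mated groups averaged, key, IKKbeta and Fadd were the 3 members called, all lower, when 24.5% of all probe sets were called, 14.2% lower and 10.3% higher. For each of them all 8 mated arrays lay below all 4 virgin arrays, a separation that 9.66% of probe sets showed, while 0 members and 5.51% of probe sets had all mated arrays above. The averaged change was -0.33 (SE 0.04, adjusted p = 1.54e-04) for key, -0.35 (SE 0.07, adjusted p = 0.00209) for IKKbeta and -0.29 (SE 0.05, adjusted p = 6.52e-04) for Fadd. These calls held under all 22 alternative settings.

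Rel, the NF-kappaB factor that the IKK complex phosphorylates, was called lower in neither mated group. It measured 10.19, 9.95, 10.13 and 10.09 in double mated, 9.99, 9.87, 9.90 and 9.79 in single mated, and 9.87, 9.87, 9.92 and 9.92 in virgin arrays. All double mated arrays lay above all virgin arrays, as they did for 11.6% of probe sets, while single mated arrays fell on both sides of the virgin ones. Rel rose 1.14-fold in double mated against virgin females (1.04 to 1.26, adjusted p = 0.0341). The call ended without any 1 of the 4 virgin arrays, without double mated replicate 1 or 3 (adjusted p between 0.0566 and 0.1004), and when array medians were set equal (0.185). Single mated and virgin females differed by -0.01 (SE 0.06, adjusted p = 0.952), and double mated were at 1.15 of single mated females (1.05 to 1.27, adjusted p = 0.0791).

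**Figure D2:**
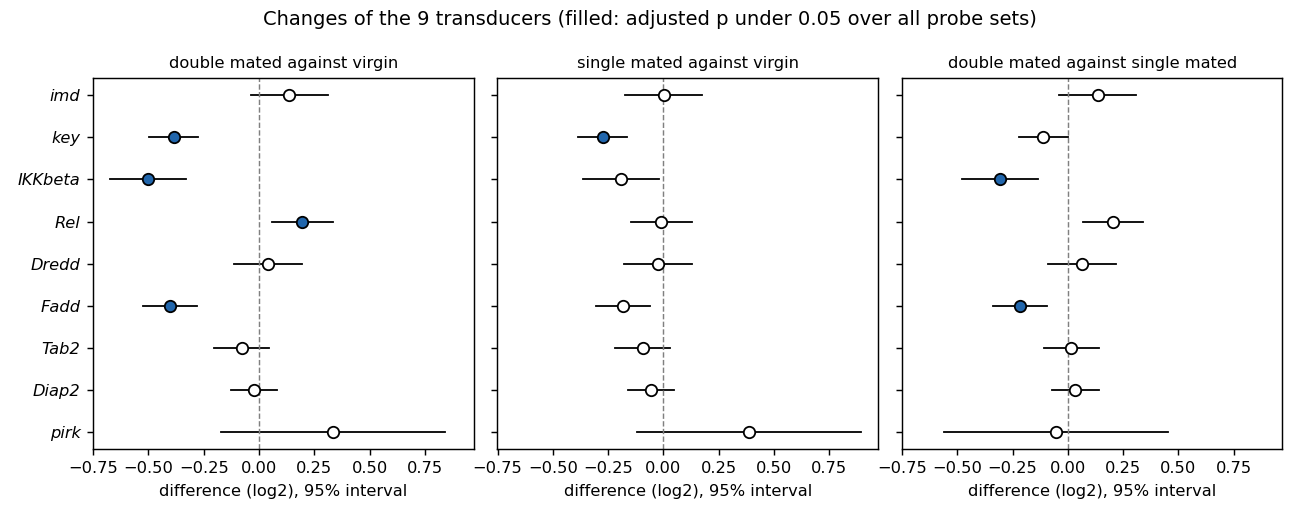
Difference of each transducer on the log2 scale (point) with its 95% interval (line) for double mated against virgin, single mated against virgin, and double against single mated females; filled points passed the adjusted threshold of 0.05. The intervals of key, IKKbeta and Fadd lie wholly below 0 against virgins in both mated groups, and that of pirk is the widest.

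The remaining proximal components gave no call, and the intervals show how large a change the arrays could have missed. The adaptor imd measured 7.67, 7.65, 7.72 and 7.56 in double mated, 7.78, 7.39, 7.39 and 7.51 in single mated, and 7.51, 7.57, 7.44 and 7.55 in virgin arrays. Groups overlapped, and double mated females were at 1.10 of the virgin level (0.974 to 1.24, adjusted p = 0.254). Dredd, the caspase that cleaves both imd and Rel, measured 8.90, 8.95, 8.86 and 8.99 in double mated, 9.07, 8.73, 8.86 and 8.79 in single mated, and 8.94, 8.81, 8.86 and 8.94 in virgin arrays. Its ratio to virgin was 1.03 in double mated (0.925 to 1.14, adjusted p = 0.742) and 0.984 in single mated females (0.885 to 1.10, adjusted p = 0.886). On single mated replicate 1 both imd and Dredd were the highest of all 12 arrays.

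Diap2, the ubiquitin ligase, was the steadiest member, with values of 10.24, 10.19, 10.19 and 10.23 in double mated, 10.14, 10.20, 10.20 and 10.17 in single mated, and 10.26, 10.20, 10.23 and 10.24 in virgin arrays. Its pooled within-group SD was 0.03, and the interval of its ratio to virgin ran from 0.915 to 1.06 in double mated and from 0.894 to 1.03 in single mated females (adjusted p = 0.796 in double mated and 0.523 in single mated females). Tab2, the ubiquitin-binding partner of Tak1, measured 10.07, 10.12, 10.12 and 10.29 in double mated, 10.16, 10.15, 10.12 and 10.10 in single mated, and 10.22, 10.20, 10.22 and 10.27 in virgin arrays. The highest Tab2 value of all was on double mated replicate 4, and 7 of 8 mated arrays lay below every virgin array. Tab2 was at 0.948 of virgin in double mated (0.870 to 1.03, adjusted p = 0.378) and 0.937 in single mated females (0.860 to 1.02, adjusted p = 0.349), and without double mated replicate 4 the double mated difference was -0.12 (adjusted p = 0.0775).

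The feedback inhibitor pirk varied most. It measured 7.95, 7.08, 6.92 and 7.73 in double mated, 7.31, 7.18, 7.34 and 8.06 in single mated, and 7.25, 7.46, 6.82 and 6.82 in virgin arrays. Its pooled within-group SD of 0.41 was larger than that of 99.2% of probe sets. The means were 7.42 ± 0.50 in double mated, 7.47 ± 0.40 in single mated and 7.09 ± 0.32 in virgin females (SD, n = 4 each), and the ratio to virgin was 1.26 in double mated (0.887 to 1.79) and 1.31 in single mated females (0.920 to 1.86), with adjusted p of 0.346 for double mated and 0.341 for single mated females. Single mated replicate 4 and double mated replicates 1 and 4 lay above every virgin array, and the other mated arrays lay within the virgin range.

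Genes upstream of, beside and downstream of the transducers were taken from lists that, like the members, were drawn up with earlier results of these data known. The largest changes among these lists were downstream, in peptide genes that Rel is known to induce. Of 15 listed target peptides 7 had a probe set with 1 symbol. Of these 7, 6 rose in double mated against virgin females while none fell (12.3% and 15.7% of all probe sets), with a median change of 1.63. In single mated females 1 of 7 rose and none fell (4.49% and 5.17% of all), with a median change of 0.11. In double against single mated females 5 of 7 were higher and none lower (3.55% and 1.74% of all).

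**Figure D3:**
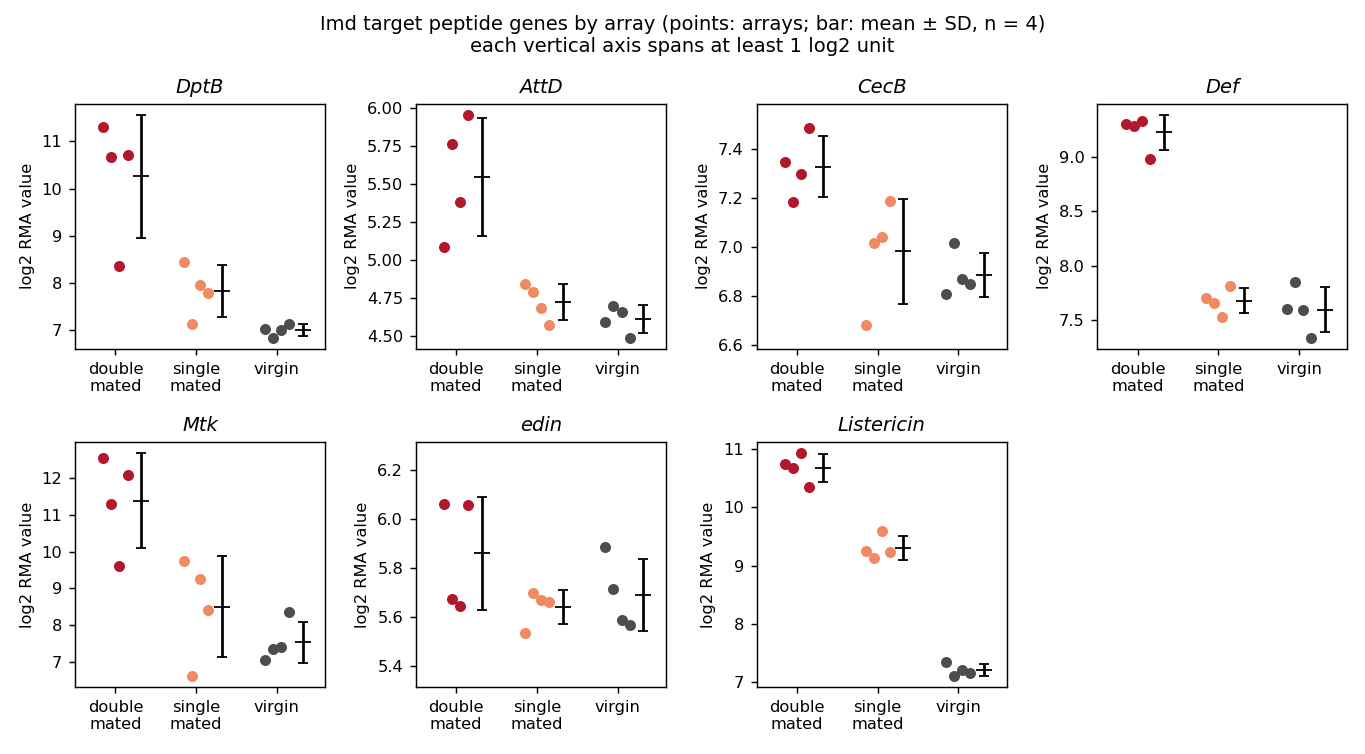
Log2 RMA value of the 7 measured target peptide genes on each array, with double mated, single mated and virgin arrays from left to right (4 points each) and the mean ± SD beside them. All 4 double mated arrays lie above all single mated arrays for Def, AttD and Listericin, while DptB runs from 8.35 to 11.30 and Mtk from 9.61 to 12.55 among double mated arrays.

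Def, an insect defensin, measured 9.31, 9.28, 9.33 and 8.98 in double mated, 7.71, 7.66, 7.53 and 7.81 in single mated, and 7.60, 7.85, 7.60 and 7.34 in virgin arrays. It rose 3.10-fold over virgin in double mated females (2.65 to 3.62, adjusted p = 7.67e-07), while single mated and virgin arrays overlapped. DptB, a diptericin and a standard readout of Imd signalling, measured 11.30, 10.67, 8.35 and 10.71 in double mated, 8.45, 7.12, 7.96 and 7.79 in single mated, and 7.04, 6.84, 7.01 and 7.13 in virgin arrays. It was 9.53-fold over virgin in double mated females (4.79 to 19.0, adjusted p = 1.38e-04), although double mated replicate 3 lay within the range of the single mated arrays. On the log2 scale that is 3.25, and 3.89 without double mated replicate 3. Listericin rose in both mated groups and is known to respond to JAK/STAT as well as Imd signals. It was 11.1-fold over virgin in double mated (9.31 to 13.3) and 4.29-fold in single mated females (3.60 to 5.12), with adjusted p of 2.94e-10 in double mated and 4.51e-07 in single mated females.

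Of the other target peptides, AttD, an attacin, and CecB, a cecropin, rose by 0.94 (SE 0.14, adjusted p = 2.41e-04) and 0.44 (SE 0.10, adjusted p = 0.00319) in double mated against virgin females. The AttD signal was low, with means of 5.54 in double mated, 4.72 in single mated and 4.61 in virgin arrays. Mtk, which also responds to the Toll pathway, rose by 3.86 (SE 0.64, adjusted p = 4.44e-04), and by 4.45 without double mated replicate 3. Its call against single mated females (2.88, SE 0.64, adjusted p = 0.0191) ended without double mated replicate 1 (0.0521). The elevated-during-infection gene edin measured 5.86 ± 0.23 in double mated, 5.64 ± 0.07 in single mated and 5.69 ± 0.15 in virgin females (SD, n = 4 each) and was not called.

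**Figure D4:**
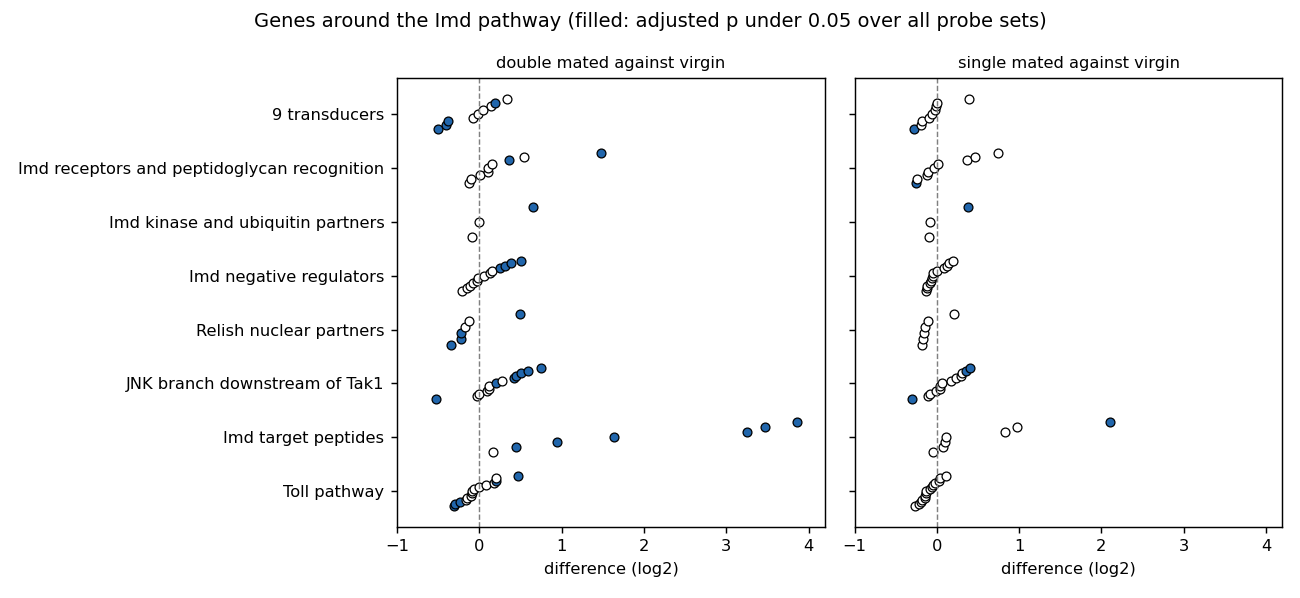
Log2 difference of each measured gene in the 9 transducers and in 7 surrounding lists, for double mated against virgin females (left) and single mated against virgin females (right); filled points passed the adjusted threshold of 0.05. The target peptides reach 3.86 in double mated females, whereas the 9 transducers stay between -0.50 and 0.33. The JNK list also holds genes that do not lie downstream of Tak1.

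The counts of the lists that follow stand beside the 12.3% of all probe sets called higher and the 15.7% called lower in double mated against virgin females (28.1% in all). Of 16 listed receptors and peptidoglycan-binding genes, 9 were measured, and 2 rose and none fell in this comparison, a share of genes called that is below that of all probe sets. PGRP-SB1, an amidase whose gene is induced through Rel, rose by 1.48 (SE 0.30, adjusted p = 0.0019), and PGRP-LB, an amidase that dampens the response, by 0.36 (SE 0.12, adjusted p = 0.0378). The PGRP-LB call ended without virgin replicate 3 or 4 and without double mated replicate 1 or 2 (adjusted p between 0.0910 and 0.120). It also ended with array medians set equal (0.0680), with the replicate number as a block (0.0586) and with a trend on gene span removed (0.0691). In single mated females 1 of the 9 fell, GNBP3, a fungal glucan receptor of the Toll pathway (-0.25, SE 0.07, adjusted p = 0.0481), and its call ended without any of 8 arrays, the highest adjusted p being 0.151. The GNBP3 call also ended under cyclic loess (0.0830), with the replicate block (0.0629), with only the groups compared (0.0624) and with the span trend removed (0.106). Among ubiquitin partners, ben, the E2 enzyme that works with Uev1A in this pathway, was the 1 of 3 measured genes that changed. It averaged 9.96 in double mated, 9.70 in single mated and 9.31 in virgin females, a rise over virgin of 0.65 (SE 0.08, adjusted p = 7.02e-05) in double mated and 0.38 (SE 0.08, adjusted p = 0.0118) in single mated females.

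Of 14 genes listed as inhibitors of the pathway, 13 were measured under their listed symbols. The other, pickle, is the same gene as Charon, which fell and is counted below with the partners of Rel. Of the 13, 4 rose and none fell in double mated against virgin females (12.3% and 15.7% of all probe sets). In single mated females none of them was called (1 at an unadjusted p under 0.05). RYBP, reported to restrain Relish signalling through ubiquitination, rose by 0.38 (SE 0.07), nub, which encodes a POU factor that represses immune genes, by 0.51 (SE 0.12), slmb, a ubiquitin ligase subunit, by 0.31 (SE 0.07) and Usp2, a deubiquitinase, by 0.25 (SE 0.07), with adjusted p of 0.00108, 0.00516, 0.00411 and 0.0208. Leaving out virgin replicate 2, virgin replicate 3 or double mated replicate 3 ended the Usp2 call (adjusted p between 0.0515 and 0.0703). So did setting array medians equal (0.0737) and removing a trend on gene span (0.0580). Against single mated females nub was higher by 0.64 (SE 0.12, adjusted p = 0.00775), and this call ended when the probe sets of a gene were averaged (0.122). Averaging also lowered its change from virgin in double mated females to 0.19 (adjusted p = 0.0406).

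Of 6 measured partners of Rel in the nucleus, 1 rose and 3 fell in double mated against virgin females (12.3% and 15.7% of all probe sets). The subunit osa of the Brahma chromatin remodeller rose by 0.49 (SE 0.07, adjusted p = 8.15e-05). Charon, an ankyrin-repeat partner of Rel counted here and not among the inhibitors, fell by 0.34 (SE 0.06, adjusted p = 7.91e-04). The nuclear factor akirin and the remodeller subunit Bap60 fell by 0.23 (SE 0.07) and 0.23 (SE 0.07), with adjusted p of 0.0189 and 0.0242. Leaving out virgin replicate 1, double mated replicate 2 or double mated replicate 3 ended the call of akirin (adjusted p 0.0519 to 0.0611), and these arrays or virgin replicate 2 that of Bap60 (0.0530 to 0.0854). Cyclic loess ended both calls, with akirin at -0.15 (adjusted p = 0.0806) and Bap60 at -0.13 (0.139), and removing a trend on gene span ended that of Bap60 (-0.14, adjusted p = 0.121).

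Tak1 also feeds the JNK branch. The 13 genes measured for it are of the JNK pathway more widely. They include ligand, receptor and TRAF adaptor genes, Traf4 among them, that do not lie downstream of Tak1. In double mated against virgin females 6 rose and 1 fell (12.3% and 15.7% of all probe sets), and in single mated females 2 rose and 1 fell (4.49% and 5.17%). The kinase Mkk4 rose by 0.50 (SE 0.06, adjusted p = 2.86e-05), kay, the fly Fos, by 0.75 (SE 0.10, adjusted p = 6.47e-05) and the TRAF adaptor Traf4 by 0.59 (SE 0.10, adjusted p = 3.97e-04). Jra, the fly Jun, fell by 0.53 (SE 0.08, adjusted p = 2.03e-04), so that the AP-1 partners kay and Jra moved in opposite directions. With the probe sets of a gene averaged, kay rose by 0.43 (adjusted p = 9.98e-04) and Traf4 by 0.23 (adjusted p = 0.0101). The single mated calls were Mkk4 (0.36, adjusted p = 0.00186), kay (0.40, adjusted p = 0.0176) and Jra (-0.30, adjusted p = 0.0297). That of kay ended without virgin replicate 3 or single mated replicate 4 (0.0666 to 0.0669). That of Jra ended without virgin replicate 1, 3 or 4 or single mated replicate 2, 3 or 4 (0.0599 to 0.0914), under cyclic loess (0.0589) and with the span trend removed (0.05003). In the Toll pathway, the other NF-kappaB route, 2 of 15 measured genes rose and 3 fell in double mated females, a share near that of all probe sets (12.3% and 15.7%), and none was called in single mated females (4 at an unadjusted p under 0.05). The kinase pll, the ligand spz and the inhibitor cact fell by 0.31 (SE 0.07, adjusted p = 0.00433), 0.30 (SE 0.07, adjusted p = 0.00481) and 0.24 (SE 0.06, adjusted p = 0.0130). The serpin nec rose by 0.47 (SE 0.07, adjusted p = 1.26e-04). The cact call ended under cyclic loess (adjusted p = 0.0729) and when its probe sets were averaged (0.136).

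Genes of like pattern were found among all genes with a symbol of their own by the root mean square difference over the 12 arrays, after each gene's virgin mean was subtracted. Closest to key were Nxt1, an mRNA export factor, Pcd and PIG-U, at 0.04, 0.04 and 0.05 log2 units. The closest to IKKbeta were CG9609, the cell cycle kinase subunit Cks30A and the repressor E2f2, at 0.06, 0.06 and 0.07, and closest to Fadd were Smu1, Gmer and Clp at 0.05 each. For Rel they were the cathepsin gene CtsF, Atg2 and CG7611 at 0.05, 0.06 and 0.06. Among the members themselves, key and Fadd lay 0.08 apart, IKKbeta and Fadd 0.11, and key and IKKbeta 0.12, whereas Rel lay 0.37 from key, 0.37 from Fadd and 0.43 from IKKbeta.

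In the RefSeq annotation of Release 6, 7 of the 9 member genes overlap the span of another gene (Tab2 and pirk do not). The overlapping genes did not all move with the members. Dp1, which overlaps imd, rose by 0.84 in double mated (adjusted p = 2.97e-05) and 0.52 in single mated against virgin females. Beside it imd changed by 0.14 and 0.00. GstE9, which also overlaps imd, changed by 0.35 in double mated females (adjusted p = 0.131). CG3589, which overlaps key, was 9.25 in double mated, 9.34 in single mated and 9.64 in virgin females, an averaged change of -0.35 (SE 0.06, adjusted p = 5.02e-04) beside -0.33 for key. Nmdmc, which overlaps Rel, changed by 0.41 in double mated and 0.29 in single mated against virgin females, beside 0.20 and -0.01 for Rel. The gene pit, which overlaps Fadd, changed by 0.07 on average (SE 0.06, adjusted p = 0.433) beside -0.29 for Fadd. Probe positions were not used here, so whether any probe reads both genes was not tested.

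Summed linear signals were taken for 9 marker lists. The counts of called genes given with them are for double mated against virgin females. In that comparison 12.3% of all probe sets were called higher and 15.7% lower. The 10 hemocyte genes summed to 3735 to 4167 in double mated, 3129 to 3647 in single mated and 2724 to 2991 in virgin arrays, and 6 of 10 were called higher and none lower in double mated against virgin females. The 7 fat body genes summed to 119216 to 121494 in double mated, 115679 to 122602 in single mated and 103515 to 113959 in virgin arrays, with 2 higher and 1 lower. The 7 midgut genes summed to 96335 to 102898 in double mated, 81404 to 91527 in single mated and 66910 to 77667 in virgin arrays, with 5 higher and 1 lower. The 7 follicle cell genes summed to 93659 to 116236 in double mated, 66201 to 85793 in single mated and 57053 to 74499 in virgin arrays, with 5 higher and none lower. The 7 female germline genes summed to 18817 to 23254 in double mated, 17995 to 18951 in single mated and 16905 to 17612 in virgin arrays, with 2 higher and 1 lower. The 5 neuron genes summed to 846 to 1078 in double mated, 837 to 884 in single mated and 673 to 750 in virgin arrays, with 2 higher and none lower. The 5 flight muscle genes summed to 17504 to 20480 in double mated, 16935 to 21872 in single mated and 13366 to 17268 in virgin arrays, with 1 higher and none lower. Sums overlapped between all groups for the 7 male accessory gland genes (123 to 132 in double mated, 126 to 142 in single mated and 116 to 132 in virgin arrays) and the 11 testis and sperm genes (291 to 311 in double mated, 307 to 326 in single mated and 289 to 321 in virgin arrays), and none of these genes was called in double mated against virgin females (1 in each list at an unadjusted p under 0.05). The 7 sums other than the male ones were higher in every double mated array than in every virgin array. A linear sum rests mostly on its brightest genes, and gene means ran from 4.58 to 15.09 for fat body and 6.41 to 13.22 for germline. Single genes changed by -0.85 to 0.27 in fat body, -0.70 to 0.58 in germline and -1.91 to 1.52 in midgut. The sums are thus no measure of a whole tissue. The part of tissue makeup in the lower values of key, IKKbeta and Fadd was not tested.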

How the data were processed

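Expression was measured in 12 pools of whole females, 4 per group. The authors deposited 1 log2 value for each probe set and array; RMA and affy are named in the submitters' processing notes, and their versions are not given in the sources used here. RMA as usually run includes background correction and quantile normalization, so differences are relative to the bulk of the array. Arrays carry no read depth, and their number limits the precision. From the table of 18952 probe sets, 183 controls were left out and 18769 tested with no signal filter; 13647 had 1 gene symbol. Group means were fitted to all arrays with limma 3.58.1 in R 4.3.3 (lmFit, eBayes), with Benjamini-Hochberg adjustment over all probe sets and calls at an adjusted p under 0.05, and the fit was tested on simulated data. The 4 contrasts are named in the text, mated meaning the mean of both mated groups. Members and lists were chosen with earlier results of these data known. The text names all 9 members, up to 4 called genes of each list by the smallest F-test p, all measured target peptides, and the 3 genes of most like pattern for each called member. Genes overlapping a member were added after the data were seen. Each result was recomputed under 21 other settings, and under 1 more chosen after seeing the data (a trend on gene span removed).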

Additional observations from a re-analysis of the deposited data

Results flagged for a closer look

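For IKKbeta and Fadd the change from virgin differed between the mated groups in limma: double against single mated females differed by -0.31 (adjusted p = 0.0381) and -0.22 (adjusted p = 0.0392). The same test separated the mated groups for 5 target peptides, by 2.43 for DptB (adjusted p = 0.00863), 0.82 for AttD (0.00523), 1.55 for Def (3.52e-06), 2.88 for Mtk (0.0191) and 1.37 for Listericin (2.61e-05). It did so also for nub (0.64, adjusted p = 0.00775), osa (0.29, adjusted p = 0.0202), kay (0.35, adjusted p = 0.0492) and nec (0.43, adjusted p = 0.0024). Of these calls, that of kay was lost under 15 of 22 other settings, that of Fadd under 15, IKKbeta under 11, osa and Mtk under 3 each and nub under 1; osa was lost without double mated replicate 2 (adjusted p = 0.0649). For nub the double mated change from virgin was 0.51 and the single mated change -0.13, which was not called (adjusted p = 0.547) and whose arrays overlapped the virgin ones.

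A single array lay far from the rest of its group in 5 of 108 gene and group combinations, a share that chance alone gives at about 1 in 20. By the share of the group's range that separates the array from its nearest neighbour, these were slmb in single mated replicate 2 (0.855 of the range), Mkk4 in double mated replicate 3 (0.842) and single mated replicate 4 (0.859), and Def and spz in double mated replicate 4 (0.867 and 0.855). Of the 27 combinations of a transducer and a group, 0 were of this kind. Def in double mated replicate 4 measured 8.98, against 9.28 to 9.33 on the other double mated arrays, and was still above every single mated array.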

How the results depend on the processing

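Of 10 called differences of the transducers, 7 held under all 22 settings tried: key, IKKbeta and Fadd in double mated and in averaged mated against virgin females, and key in single mated against virgin females. For averaged mated against virgin females, fitting only the groups compared repeats the main fit and could not change a call. Of 64 called differences of list genes, 43 held under all. Of 36 member differences 11 changed sign somewhere, and 0 of these were called; the cause was not tested.

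Cyclic loess called 1 member higher in averaged mated against virgin and 1 in double against single mated females (Rel). It turned Diap2 to 0.043 (mated), 0.072 (double mated) and 0.013 (single mated) against virgin, Tab2 to 0.017 (double mated), and Rel and Dredd to 0.061 and 0.036 (single mated). Setting array medians equal left 0 members higher in double mated and 2 lower in single mated females against virgin, with Dredd at -0.055 (mated) and -0.027 (double mated) and imd at -0.058 (single mated). A signal filter, array weights and averaged probe sets also gave 2 lower in single mated females. Array weights called 2953 probe sets in single mated against virgin and 2195 in double against single mated females (1813 and 992 without), with imd at -0.032 (single mated) and Tab2 at -0.011 (double against single). At an adjusted p under 0.01, 2866 (mated), 606 (single mated against virgin) and 307 (double against single) probe sets were called, with 0 members higher in double mated against virgin and 0 lower in double against single mated females. Fitting only the groups compared gave 550 probe sets and 0 members lower in double against single mated females. Removing the span trend left 1 member lower there and Tab2 at -0.0099, and gave Diap2 0.015 (mated) and 0.045 (double mated), and Rel 0.016 and Dredd 0.027 (single mated), against virgin. Of mated against virgin calls 41.9% were higher, against 53.0% under cyclic loess and 26.3% with medians set equal.

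With the replicate number as a block, double against single mated females had 661 probe sets called and 0 members lower (IKKbeta adjusted p = 0.0903, Fadd 0.0876). Same-numbered arrays did not deviate together (r from -0.26 to 0.14 in 12 pairs), so the numbers were not taken as pairing, and 2 of 12 arrays correlated best with their own number.

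Leaving out 1 array at a time gave 3415 to 5445 probe sets called in mated, 857 to 2698 in single mated and 4333 to 5975 in double mated against virgin, and 527 to 2171 in double against single mated females. Members called ranged from 0 to 1 higher in double mated against virgin, 1 to 2 lower in single mated against virgin and 0 to 2 lower in double against single mated females. Changes then ranged from -0.025 to 0.031 for Dredd (mated), -0.087 to 0.045 for imd, -0.044 to 0.024 for Rel and -0.090 to 0.021 for Dredd (single mated), and -0.031 to 0.044 for Tab2 and -0.23 to 0.14 for pirk (double against single). The number of arrays limits the precision.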

Other observations

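The inhibitor gene pirk gave no call, and the order of its values over the arrays of each group was compared with that of the target peptides after the values were seen. In double mated females pirk, DptB, Mtk, edin and Diap2 ran replicates 1, 4, 2 and 3 from high to low, with pirk at 7.95, 7.73, 7.08 and 6.92, and edin, whose values on replicates 1 and 4 were both 6.06, nearly tied there. The Diap2 values spanned only 10.19 to 10.24. Def, AttD, CecB and Listericin had other orders. The shared order did not carry over to the other groups. In single mated females pirk ran replicates 4, 3, 1 and 2, and DptB and Mtk 1, 3, 4 and 2. In virgin females pirk ran replicates 2, 1, 3 and 4, DptB 4, 1, 3 and 2, and Mtk 4, 3, 2 and 1. The lowest pirk values, 6.823 and 6.818 on virgin replicates 3 and 4, were nearly tied, and both peptides were highest on replicate 4.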
